A study of Mus musculus with 12 samples.

Results

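Oxidative phosphorylation is carried out in the inner mitochondrial membrane by 5 protein complexes, and their nuclear-encoded subunit genes were read here in lymph node regulatory T cells of mice that carry or lack Drak2. Genes were taken by their annotation symbol: those starting with Nduf followed by a, b, c, s or v (complex I), Sdha to Sdhd (complex II), Uqcr (complex III), Cox4 to Cox8 followed by a, b or c (complex IV) and Atp5 (complex V). This gave 91 of the 19505 genes tested, with 46 in complex I, 4 in complex II, 8 in complex III, 16 in complex IV and 17 in complex V. No measured value entered the choice. By name, 9 of the 91 are not subunits, namely 8 complex I assembly factors (Ndufaf genes) and Cox7a2l, a factor of supercomplex assembly, which leaves 82 subunits. Ndufa4 stands under complex I by its prefix, although it is known as a subunit of complex IV. The 13 subunits encoded by the mitochondrial genome had no row named here and were not analysed here, and Cyc1 and Cox4i1 fall outside the prefixes and are given with the related genes.

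The study compared NOD mice, an inbred strain that develops autoimmune diabetes spontaneously, with NOD.Drak2-/- mice, which lack the kinase Drak2 on that background. Drak2 is encoded by Stk17b and is known to dampen T cell receptor signalling. All animals were females 4 to 8 weeks old, and each of the 12 arrays, 6 per genotype, held RNA of cells sorted by flow cytometry from the lymph nodes of 1 mouse and labelled regulatory T cells (CD4+ CD8- CD25+ CD45RBlo). The antibodies listed for the sort were against CD45RB, CD4 and CD8, with none against CD25, so CD25 is given by the sample labels alone. The sources used here do not say how the Drak2 allele was made.

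Complexes I and II pass electrons from NADH and succinate to ubiquinone, complex III passes them on to cytochrome c, and complex IV hands them to oxygen. Complexes I, III and IV pump protons as they do so, and complex V, the ATP synthase, uses the proton gradient to make ATP. Regulatory T cells are known to rely more on this route than effector T cells, which lean on glycolysis. The subunits come from genes scattered over the genome (19 chromosomes for the 91 genes here), and nuclear respiratory factor 1, the ETS factor GABP and the oestrogen-related receptors are known regulators of many of them.

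Promoters of 300 bases, 250 before and 50 after the annotated start of transcription, were found in RefSeq (GRCm38.p6) for 77 of the 91 genes. Letters known from the binding sites of the 3 regulators were searched on both strands: GCGCATGC for nuclear respiratory factor 1, CCGGAAG for GABP and other ETS factors, and AAGGTCA for the oestrogen-related receptors. GCGCATGC stood in the promoters of 12 of the 77 genes (15.6%), against 3.05% of 27025 genes with a promoter in the table and 6.50% of the 6694 such genes that were tested and above background on the arrays. CCGGAAG stood in 19 of the 77 (24.7%), against 9.93% and 22.5%, and AAGGTCA in 8 (10.4%), against 5.38% and 3.72%. The promoters had a median GC content of 58.3%, against 52.7% over all genes in the table and 61% over those tested and above background. The 12 genes with GCGCATGC fell in all 5 complexes: 5 in complex I, 1 in complex II, 2 in complex III, 1 in complex IV and 3 in complex V. They are shown because they share these letters and not because of their expression, and a match of letters is a description, not a binding site. Each line gives 28 bases of 1 match, with GCGCATGC in capitals, on the strand on which it reads so. In the lines that go on with GC after the match, the motif also reads on the other strand, shifted by 2 bases, because GCGCATGCGC is its own reverse complement.
Atp5g2, chr15:102671072-102671099, the gene's strand: ggctccggccGCGCATGCgcagagcctt
Atp5k, chr5:108434432-108434459, the gene's strand: tttcactgcgGCGCATGCgcctttctgg
Atp5l, chr9:44920965-44920992, the strand opposite the gene: tgggggaaatGCGCATGCgttattggtt
Cox6a1, chr5:115349103-115349130, the gene's strand: caggaacgggGCGCATGCgcgctctcgc
Ndufa11, chr17:56717692-56717719, the gene's strand: cctgcactgcGCGCATGCgcgcacgcct
Ndufa6, chr15:82354357-82354384, the strand opposite the gene: gctctgcaatGCGCATGCtctaccgcgg
Ndufa8, chr2:36049329-36049356, the strand opposite the gene: ggtaccatctGCGCATGCgtctccagcg
Ndufaf4, chr4:24897960-24897987, the gene's strand: ccagatgtctGCGCATGCgcctgtgcgg
Ndufaf5, chr2:140170652-140170679, the gene's strand: agtcccgttgGCGCATGCgcctaataga
Sdhb, chr4:140961207-140961234, the strand opposite the gene: ggcccgtaggGCGCATGCccactgggct
Uqcr11, chr10:80406808-80406835, the strand opposite the gene: cagacgtataGCGCATGCgtgaaggcga
Uqcrc1, chr9:108936668-108936695, the gene's strand: actccgctctGCGCATGCgcagcgcggc

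Whole promoters are shown for Ndufb10, the gene with the smallest p of the 91, and for Sdhb, the iron-sulphur subunit of complex II, whose promoter holds both GCGCATGC (capitals, read here from the opposite strand as GCATGCGC) and CCGGAAG (capitals). The Ndufb10 promoter holds none of the 3 motifs and is printed without capitals.
Ndufb10, chr17:24724374-24724673, minus strand: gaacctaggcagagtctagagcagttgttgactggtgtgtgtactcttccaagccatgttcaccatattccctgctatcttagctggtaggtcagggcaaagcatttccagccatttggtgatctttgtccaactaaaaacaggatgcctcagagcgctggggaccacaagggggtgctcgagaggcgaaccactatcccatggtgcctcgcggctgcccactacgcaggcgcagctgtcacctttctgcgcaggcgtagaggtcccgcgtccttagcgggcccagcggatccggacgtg
Sdhb, chr4:140961021-140961320, plus strand: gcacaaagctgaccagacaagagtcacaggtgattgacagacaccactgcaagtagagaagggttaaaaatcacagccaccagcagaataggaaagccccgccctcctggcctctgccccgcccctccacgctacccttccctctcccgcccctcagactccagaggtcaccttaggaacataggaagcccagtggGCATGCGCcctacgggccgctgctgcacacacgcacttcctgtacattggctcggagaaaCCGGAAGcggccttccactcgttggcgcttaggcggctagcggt

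Values are log2 intensities that the authors normalized together, so that a difference of 1 is a doubling, and they rank the same gene across arrays but not different genes against each other. The brightest of 23 background rows, whose antigenomic probes match no mouse sequence, had a mean of 5.87, and 84 of the 91 genes lay above it, which is 92.3% against 41.7% of all genes tested. Stk17b, the targeted gene, read 10.52 ± 0.21 in NOD and 10.25 ± 0.15 in NOD.Drak2-/- (SD, n = 6 each; log2 difference -0.27, adjusted p = 0.517 in limma). The sources used here do not place its probes relative to the deleted part, so this row is no check of the labels. The mean of 11 measured T cell and regulatory T cell markers ran from 9.81 to 10.003 in NOD and from 9.85 to 9.97 in NOD.Drak2-/-. Among them Cd4 (9.67 and 9.87), Ikzf2 (9.52 and 9.70) and Ctla4 (9.81 and 9.60) were above background in both genotypes, Il2ra, which encodes CD25, was not (4.82 and 5.00), and Foxp3 was not analysed here. Means of the marker lists of B cells (6 genes), CD8 and NK cells (6), myeloid cells (8), erythroid cells (2) and stroma and endothelium (7) lay between 4.30 and 5.78 on every array, under the mean of the brightest background row, which 1, 2, 1, 1 and 2 of their genes exceeded. Cd8b1 was above it in both genotypes (7.27 and 7.45), with a log2 difference of 0.18 (adjusted p = 0.661). Some of these markers, named after their values were seen, had an unadjusted p under 0.05 and none an adjusted one: Cd79b of B cells (5.89 and 6.37, difference 0.48, adjusted p = 0.436), Csf1r of myeloid cells (4.29 and 4.84, difference 0.55, adjusted p = 0.469) and Eomes of CD8 and NK cells (5.84 and 6.26, difference 0.42, adjusted p = 0.517). The B cell markers Blk (5.497 and 5.196, difference -0.30, adjusted p = 0.481) and Pax5 (4.92 and 4.39, difference -0.54, adjusted p = 0.526) had the opposite sign. Of these, Csf1r, Blk and Pax5 were not above background. Over the whole lists, the difference was below 0 for 3 of 6 B cell, 3 of 8 myeloid and 1 of 6 CD8 and NK cell markers. The mean of the B cell markers differed by 0.003 between the genotypes, so as a covariate it could move the genotype differences only little. With it, 63 of the 91 genes described here had a difference below 0, which does not show whether B cells played a part. The part of the other marker lists was not tested.

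None of the 91 genes reached an adjusted p under 0.05 between the genotypes in limma, a threshold that 4 of all 19505 genes passed (0.0205%, 0.0154% above 0 and 0.00513% below), and the smallest adjusted p among the 91 was 0.413. At an unadjusted p under 0.05 there were 3 of the 91, against 9.43% of all genes. Ndufb10 had the higher mean in NOD.Drak2-/-, 1 of 91 against 3.74% of all genes, and Atp5j and Cox7a1 the lower, 2 of 91 against 5.69%. No gene of the 91 had all 6 arrays of one genotype above all 6 of the other, against 0.513% of all genes (0.333% with NOD.Drak2-/- below and 0.179% with it above). Because cells were measured in bulk, fewer cells with a transcript and less of it per cell cannot be told apart. The mean was lower in NOD.Drak2-/- for 63 genes and higher for 28, so that 69.2% had a difference below 0, against 54.1% of all genes and 44.6% of genes above background. The median log2 difference was -0.06, against -0.02 over all genes and 0.03 over genes above background. The 91 differences ran from -0.28 to 0.51.

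**Figure D1:**
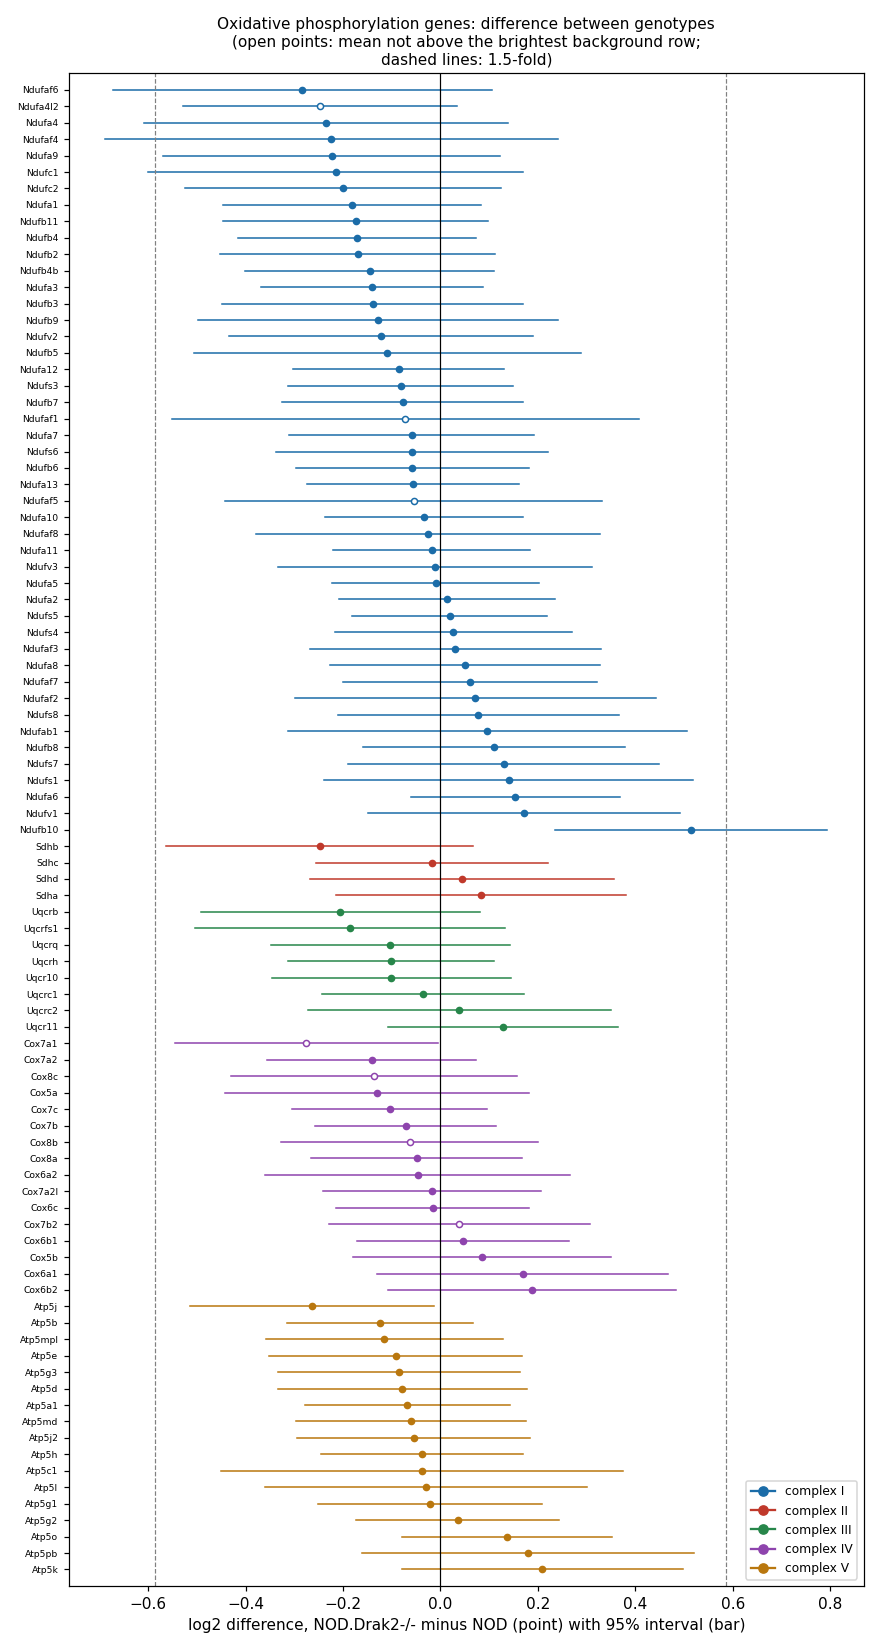
Log2 difference between genotypes (NOD.Drak2-/- minus NOD, horizontal axis) for each of the 91 genes, by complex; points are limma estimates, bars their 95% intervals (n = 6 per genotype), and open points are genes whose mean was not above the brightest background row. The interval lies within 1.5-fold (dashed lines) for 86 of the 91 genes, and Ndufb10 is the rightmost point, at 0.51.

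How narrowly the data bound the differences can be read from the 95% intervals. For 86 of the 91 genes (94.5%) the whole interval lay within 1.5-fold in either direction, against 77.5% of all genes and 75.3% of genes above background. The exceptions were Ndufb10, whose interval reached above the upper limit, and Ndufa4, Ndufc1, Ndufaf4 and Ndufaf6, whose intervals reached below the lower one. Ndufc1 and Ndufaf4 are named after their values were seen. Arrays of 1 genotype also differed little from each other, with a median SD of 0.20 over the 91 genes, against 0.25 over all genes and 0.26 over genes above background. The count of differences below 0 depended on the setting. Subtracting each array's median over all genes (centring) moves the difference of every gene by the same amount. It thus leaves the distance between these genes and all genes, or genes above background, unchanged. After it, 40 of the 91 (44%) lay below 0, against 40% of all genes. The median became 0.01, against 0.05 over all genes, and the centred medians of the complexes given below hold the same shift. Without NOD.Drak2-/- 2, 50 of the 91 (54.9%) lay below 0, against 54% of all genes. With arrays centred or left out, the comparison is with all genes, of which 41.7% were above background, and those were not counted apart. The median over the 91 genes ran from -0.07 to -0.01 as each array was left out in turn.

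In complex I, the NADH dehydrogenase and the largest of the complexes, 31 of 46 genes had a lower mean in NOD.Drak2-/- and 15 a higher one, with a median difference of -0.06 that turned to 0.01 when arrays were centred. Ndufb10, an accessory subunit of the membrane arm, had the largest difference of the 91 genes. Its log2 value in NOD was 7.90 at the lowest, 8.00 at the median and 8.24 at the highest array, and in NOD.Drak2-/- it was 8.11, 8.55 and 8.82. A single NOD.Drak2-/- array, replicate 4 at 8.11, lay within the NOD range, and the other 5 lay above it. The means were 8.02 ± 0.12 and 8.54 ± 0.29 (SD, n = 6 each), a 1.43-fold ratio and a log2 difference of 0.51 (SE 0.13, 95% interval 0.24 to 0.79, limma adjusted p = 0.413), with 6 of 6 arrays above the NOD mean. The difference lay between 0.46 and 0.60 as each array was left out, and the adjusted p was lowest, at 0.155, without NOD.Drak2-/- 4, when its groups no longer overlapped, as was then the case for 1.42% of all genes. The gene did not pass the threshold under any of these.

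The core subunits of complex I are shared with bacterial forms of the enzyme and include those that bind the flavin and the iron-sulphur clusters. They are given here for 6 genes, and 4 of these had a higher mean in NOD.Drak2-/-. Ndufv1, which carries the flavin, read 8.17 ± 0.29 in NOD and 8.35 ± 0.25 in NOD.Drak2-/- (SD, n = 6 each; log2 difference 0.17, adjusted p = 0.728). Its arrays ran from 7.71 to 8.54 (median 8.21) in NOD and from 8.09 to 8.73 (median 8.24) in NOD.Drak2-/-, so most of both groups fell in one range. Ndufs1, the largest iron-sulphur subunit, differed by 0.14 (from 5.75 to 6.66 in NOD and from 5.91 to 6.76 in NOD.Drak2-/-, adjusted p = 0.82). Ndufs7, which holds the last cluster before ubiquinone, differed by 0.13 (adjusted p = 0.799) and Ndufs8 by 0.08 (adjusted p = 0.872). Ndufv2 differed by -0.12 (adjusted p = 0.807) and Ndufs3 by -0.08 (adjusted p = 0.829), and both of these turned to 0.02 and 0.01 without NOD.Drak2-/- 1 and 2. All 6 intervals lay within 1.5-fold.

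The accessory subunits surround the core and are known to stabilise it. Of the 15 Ndufa genes 11 were lower in NOD.Drak2-/- (median difference -0.06), of the 11 Ndufb genes 9 (median -0.13) and of the 2 Ndufc genes both (median -0.21), whereas of the 7 Ndufs genes, some of them core, 2 were lower (median 0.03), and the difference between these groups was not tested. The Ndufa count includes Ndufa4, known from complex IV, at -0.24 and its paralog Ndufa4l2, in the background range, at -0.25. Ndufc1 ran from 8.73 to 9.11 in NOD (median 8.94) and from 7.94 to 9.31 in NOD.Drak2-/- (median 8.82). Its lowest value by far, 7.94, was NOD.Drak2-/- 2, while NOD.Drak2-/- 4 at 9.31 exceeded every NOD array, so the wider spread lay in NOD.Drak2-/-. Ndufa6, a small subunit of the LYR family, had the smallest p among Ndufa genes with a positive difference (8.27 ± 0.13 in NOD, 8.42 ± 0.11 in NOD.Drak2-/-, SD, n = 6 each; log2 difference 0.15, adjusted p = 0.639). Ndufb4 and its near copy Ndufb4b, whose probes may share signal, differed by -0.17 and -0.15. Of the 8 assembly factors 5 were lower (median -0.04), among them Ndufaf6 at -0.28 (SE 0.18, adjusted p = 0.632), and Ndufaf1 and Ndufaf5 were not above background.

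Complex II, succinate dehydrogenase, links the respiratory chain to the tricarboxylic acid cycle and has no mitochondrially encoded subunit, so its 4 genes were measured in full. Sdhb ran from 9.03 to 9.67 in NOD (median 9.36) and from 8.67 to 9.37 in NOD.Drak2-/- (median 9.25). Every NOD.Drak2-/- array lay below the NOD mean, yet 4 of them lay within the NOD range. The means were 9.37 ± 0.24 and 9.12 ± 0.29 (SD, n = 6 each), a log2 difference of -0.25 (SE 0.15, 95% interval -0.56 to 0.07, adjusted p = 0.604). Sdha, the flavoprotein that oxidises succinate, differed by 0.08 (6.71 ± 0.28 and 6.79 ± 0.20, SD, n = 6 each, adjusted p = 0.865). The membrane anchors Sdhc and Sdhd differed by -0.02 and 0.04, and the sign of each turned under other settings (Sdhc to 0.05 after centring, Sdhd to -0.05 without NOD.Drak2-/- 7). The subunits of this complex thus gave no common direction, with 2 above and 2 below 0 and a median of 0.01.

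In complex III, which moves electrons from ubiquinol to cytochrome c, 6 of 8 genes were lower in NOD.Drak2-/- and the median difference was -0.10, or -0.04 after centring. Uqcrb, a small subunit at the ubiquinone site, ran from 9.99 to 10.41 in NOD (median 10.26) and from 9.73 to 10.41 in NOD.Drak2-/- (median 9.97), so the ranges shared their upper end. Its log2 difference was -0.21 (SE 0.13, adjusted p = 0.639). Uqcrfs1, the Rieske iron-sulphur protein that takes the electron from ubiquinol, differed by -0.19 (7.99 ± 0.25 and 7.80 ± 0.28, SD, n = 6 each, adjusted p = 0.702). On the other side of 0 were Uqcr11, at 0.13 (8.69 ± 0.12 and 8.82 ± 0.19, adjusted p = 0.723), and the core protein Uqcrc2, at 0.04 (adjusted p = 0.945), which turned to -0.11 without NOD.Drak2-/- 1 and 2. The intervals of all 8 genes lay within 1.5-fold.

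In complex IV, cytochrome c oxidase, 11 of 16 genes were lower in NOD.Drak2-/- with a median of -0.05, which turned to 0.02 after centring. Several of its subunits exist as a widely expressed form and a form known from muscle or testis. The arrays separated some of these pairs against background, but not those of Cox6a2 and Cox6b2. Above background in both genotypes were the widely expressed Cox6a1 (10.17 and 10.34), Cox6b1 (8.79 and 8.84), Cox7a2 (11.14 and 10.997), Cox7b (11.10 and 11.03) and Cox8a (9.53 and 9.48). The muscle forms Cox7a1 (5.46 and 5.18) and Cox8b (4.33 and 4.27) and the testis forms Cox7b2 (2.85 and 2.89) and Cox8c (5.48 and 5.34) did not exceed background. Cox6a2, the muscle form, lay just above the limit (6.15 and 6.11) and Cox6b2, the testis form, somewhat higher (6.73 and 6.92), and 2 NOD.Drak2-/- arrays of Cox6a2 were below it. Among the complex I genes the same held for Ndufa4 (10.62 and 10.38) against its paralog Ndufa4l2, known from hypoxia (4.17 and 3.93, in the background range).

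**Figure D2:**
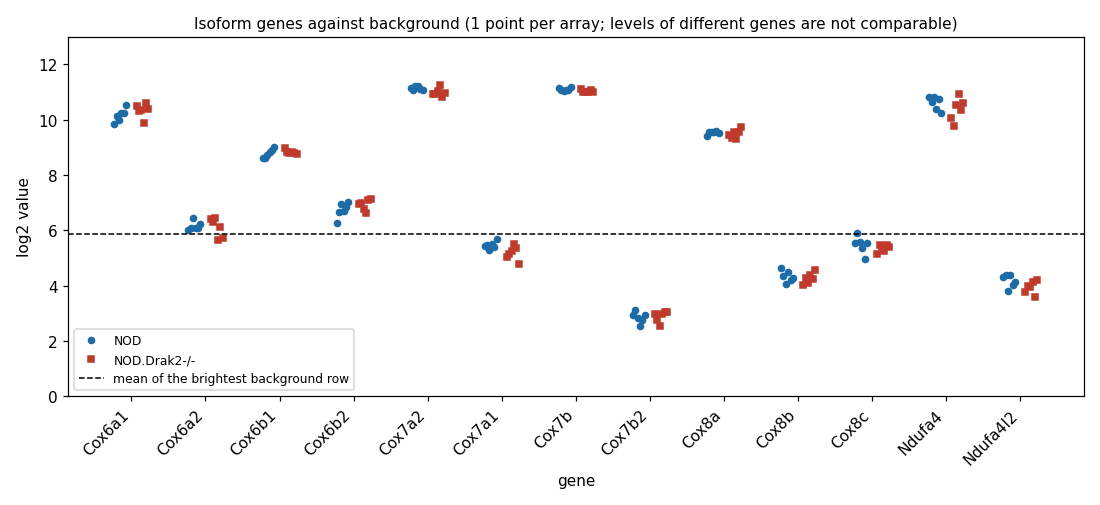
Log2 value (vertical axis) of isoform genes by array, NOD as circles and NOD.Drak2-/- as squares, 6 arrays each, with the mean of the brightest background row (5.87) as a dashed line. The widely expressed forms lie above the line on every array, Cox7a1, Cox7b2, Cox8b and Ndufa4l2 below it on every array, and levels of different genes cannot be compared.

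Cox7a1 was 1 of the 2 genes with an unadjusted p under 0.05 and a lower mean in NOD.Drak2-/-, but its values were those of a gene not distinguished from background. It ran from 5.29 to 5.69 in NOD (median 5.44) and from 4.77 to 5.51 in NOD.Drak2-/- (median 5.20), with a log2 difference of -0.28 (SE 0.13, adjusted p = 0.524). Cox7a2, its widely expressed counterpart, ran from 11.06 to 11.23 in NOD (median 11.12) and from 10.81 to 11.27 in NOD.Drak2-/- (median 10.96), with a log2 difference of -0.14 (SE 0.10, adjusted p = 0.663). Here 5 of 6 NOD.Drak2-/- arrays lay below all NOD arrays and replicate 4, at 11.27, above them. Cox7b, another small subunit, varied little between arrays (11.10 ± 0.05 and 11.03 ± 0.04, SD, n = 6 each, log2 difference -0.07, adjusted p = 0.811). In the positive direction Cox6b2 differed by 0.19 (adjusted p = 0.674) and Cox6a1 by 0.17 (adjusted p = 0.713).

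**Figure D3:**
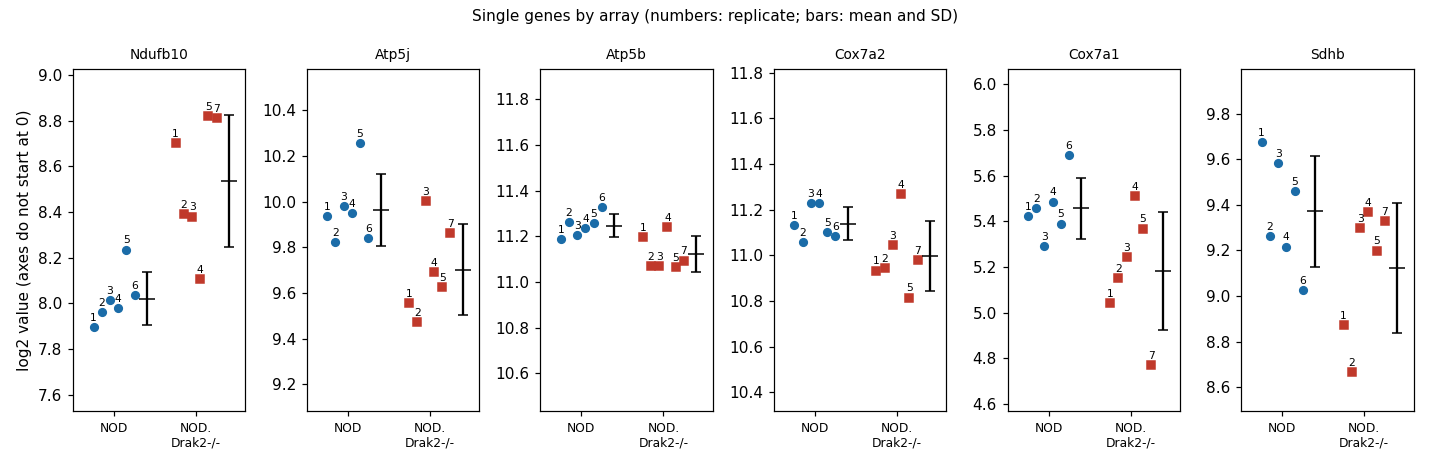
Log2 values (vertical axes, which span the same width but do not start at 0) of 6 genes by array, labelled by replicate number, with the mean and SD of each genotype (n = 6). Ndufb10 is higher in 5 of 6 NOD.Drak2-/- arrays than in all NOD arrays, and every other panel has a lower mean in NOD.Drak2-/- with groups that overlap.

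In complex V, the ATP synthase, 13 of 17 genes were lower in NOD.Drak2-/- with a median of -0.06 (0.01 after centring). Atp5j, coupling factor 6 of the stalk that holds the catalytic head, ran from 9.82 to 10.26 in NOD (median 9.94) and from 9.47 to 10.005 in NOD.Drak2-/- (median 9.66). In NOD.Drak2-/- 4 arrays lay below all NOD arrays, and replicates 3 and 7 lay within the NOD range. The means were 9.97 ± 0.16 and 9.70 ± 0.20 (SD, n = 6 each), a log2 difference of -0.26 (SE 0.12, 95% interval -0.51 to -0.01, adjusted p = 0.518). Atp5j overlaps Gabpa, which encodes a GABP subunit and differed by 0.24 (adjusted p = 0.735), and whether the probes of the 2 genes share signal was not tested. Atp5b, the catalytic beta subunit, ran from 11.19 to 11.33 in NOD (median 11.25) and from 11.07 to 11.24 in NOD.Drak2-/- (median 11.08), with all 6 NOD.Drak2-/- arrays below the NOD mean and a log2 difference of -0.12 (SE 0.09, adjusted p = 0.671). Above 0 were Atp5k, a membrane subunit linked to dimers of the enzyme, at 0.21 (8.19 ± 0.26 and 8.40 ± 0.20, SD, n = 6 each, adjusted p = 0.635), and Atp5o, the stalk protein that confers oligomycin sensitivity, at 0.14 (9.03 ± 0.10 and 9.17 ± 0.14, adjusted p = 0.676). The 3 genes of the c ring, Atp5g1, Atp5g2 and Atp5g3, chosen after their values were seen, differed by -0.02, 0.04 and -0.09. All 17 intervals lay within 1.5-fold.

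On some arrays many of the genes were low or high together. The array means of complex I were 8.66 ± 0.09 in NOD and 8.62 ± 0.14 in NOD.Drak2-/- (SD, n = 6 each), those of complex II 7.37 ± 0.14 and 7.34 ± 0.17, of complex III 9.56 ± 0.04 and 9.49 ± 0.10, of complex IV 8.40 ± 0.05 and 8.37 ± 0.03, and of complex V 9.28 ± 0.07 and 9.25 ± 0.10. In complexes I, II and V the difference between the means was smaller than the SD of either genotype. In complexes III and IV it lay between the 2 SDs, above that of NOD in III and above that of NOD.Drak2-/- in IV. NOD.Drak2-/- 2 had the lowest mean of the 12 arrays in all 5 complexes, at 8.35 in complex I, where the next lowest array had 8.57, and 18 of the 91 genes were above their own mean over the 12 arrays there. NOD 5 was at the other end with 75 of 91 and had the highest mean in complexes I and V, at 8.79 and 9.37. The other 10 arrays had between 36 and 63. Over all genes above background the shares on these 2 arrays were 46.8% and 58.0%, with 40.1% to 60.4% over the 12, while those of the 91 genes spanned 19.8% to 82.4%. Complex IV was the exception: its array means spanned 8.34 to 8.49, and NOD 6, with a mean for complex I near the bottom of the NOD arrays (8.60), had the highest. These means hold all 16 genes of complex IV, of which 12 were above background, and the part of the others in the narrow span was not tested.

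**Figure D4:**
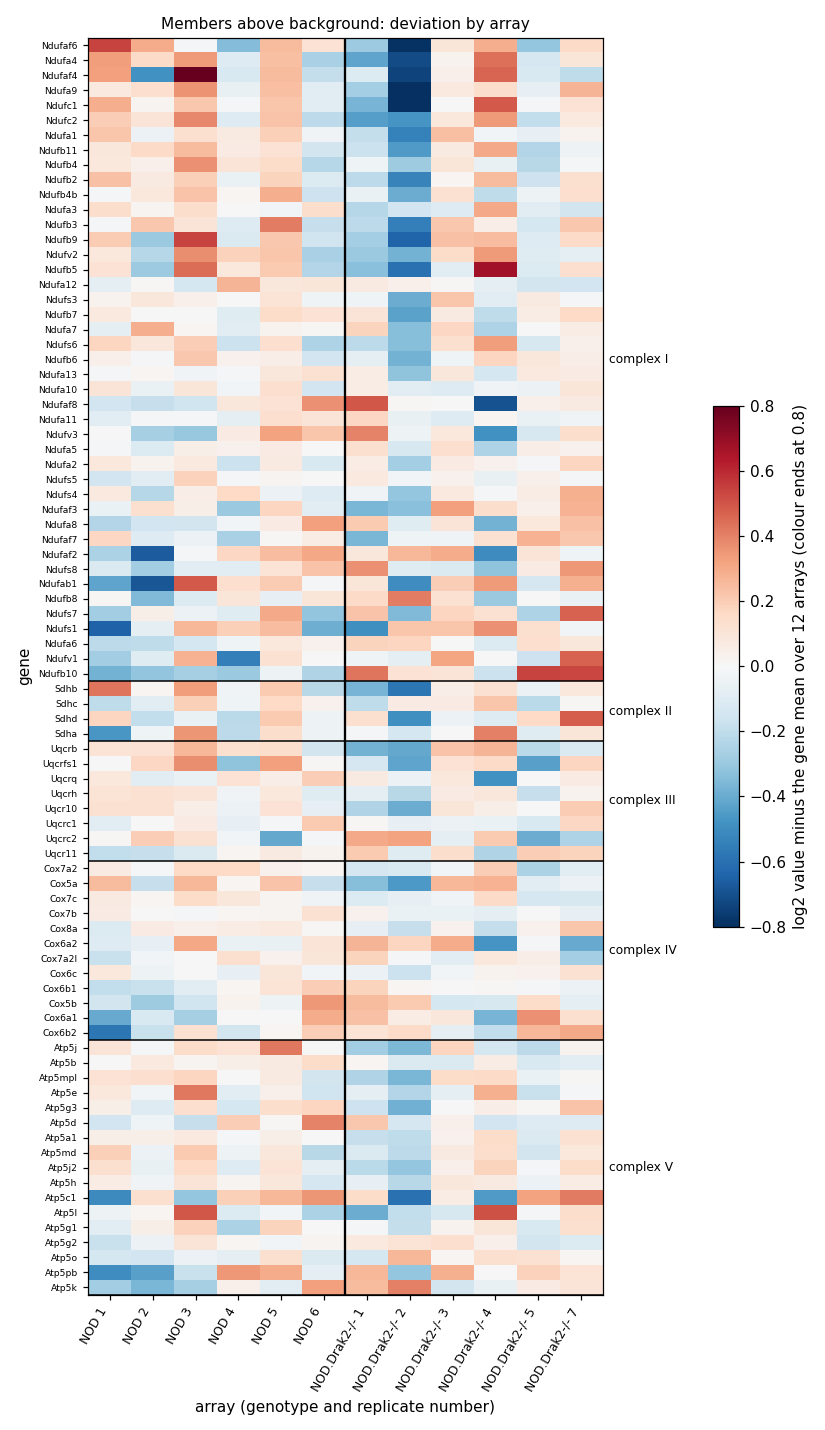
Deviation of each gene from its own mean over the 12 arrays (log2, colour scale ending at 0.8 in both directions) for the 84 of 91 genes above background, in rows by complex and sorted by their difference between genotypes, with arrays in columns. NOD.Drak2-/- 2 is blue, meaning low, across most rows of complexes I, III and V, and NOD 5 is mostly red, with 75 of the 91 genes above their mean.

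Other values stood out on the low array, NOD.Drak2-/- 2, and also on NOD.Drak2-/- 1. On NOD.Drak2-/- 1 the mean of complex I was 8.61, inside the range of the NOD arrays, and 40 of the 91 genes were above their own mean. The brightest background row read 6.52 in NOD.Drak2-/- 1 and 6.77 in NOD.Drak2-/- 2, against 5.51 to 6.06 in NOD and 5.55 to 6.07 in the other NOD.Drak2-/- arrays. The mean of 11 heat shock and dissociation genes, which respond to handling of cells, was 8.02 and 7.96 on the same 2 arrays, against 7.53 to 7.85 in NOD and 7.37 to 7.79 in the other NOD.Drak2-/- arrays. The part of either in the differences was not tested beyond the following. With these 2 arrays left out, an alternative chosen after seeing the data, 45 of the 91 genes (49.5%) had a lower mean in NOD.Drak2-/-, against 53.9% of all genes, and complex medians were -0.004 in I, 0.08 in II, -0.06 in III, -0.01 in IV and 0.02 in V. The heat shock mean itself differed by 0.02 between the genotypes, so as a covariate it could move the genotype differences only little. With it the count was 63, which does not show whether handling played a part. Another covariate, also chosen after seeing the data, was the mean of GC-rich background rows minus that of GC-poor ones (GC slope). With the GC slope the count was 62 (68.1%), against 53.4% of all genes. Ndufb10 differed by 0.51 with the heat shock covariate and with the 2 arrays left out, and by 0.53 with the GC slope.

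**Figure D5:**
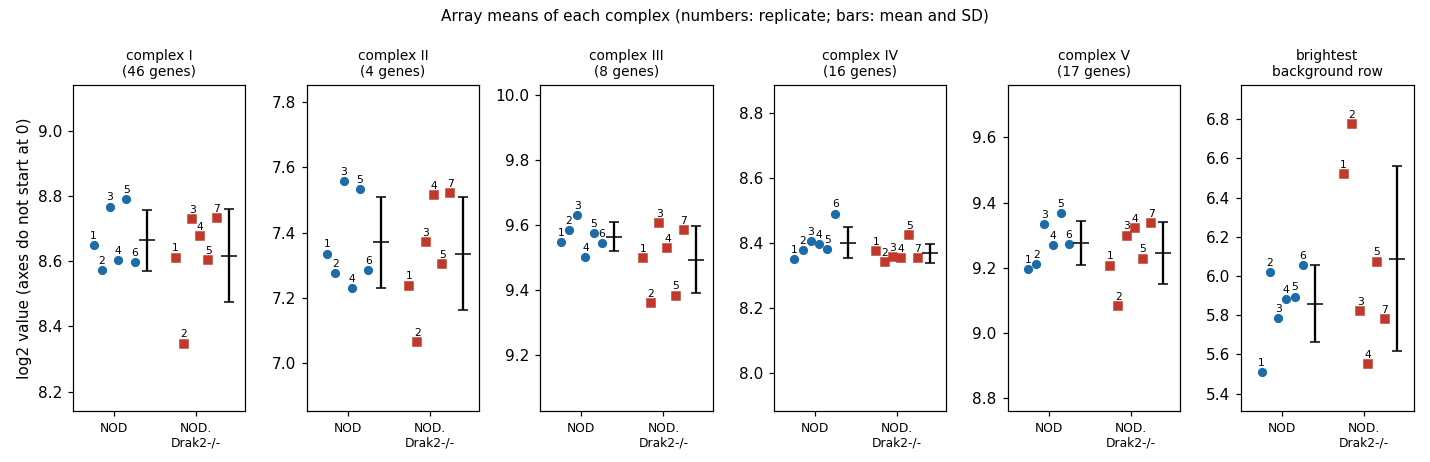
Mean log2 value (vertical axes, not starting at 0) of the genes of each complex by array, labelled by replicate number, and in the last panel the brightest background row, with the mean and SD of each genotype (n = 6). NOD.Drak2-/- 2 is the lowest point in each of the complexes, at 8.35 in complex I, and the highest in the background panel, at 6.77.

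Genes that work with the complexes were taken from lists, leaving out any of the 91, and none passed the threshold. Of the subunits and carriers outside the prefixes 8 were measured, with 4 higher and 4 lower means in NOD.Drak2-/-: Cox4i1, a core-binding subunit of complex IV, differed by 0.02, Cyc1 of complex III by 0.05, cytochrome c itself (Cycs) by -0.12 and Atpif1, the inhibitor of the ATP synthase, by -0.07. The gene with the smallest p of this list, Etfdh, which feeds electrons from fatty acid oxidation to ubiquinone, was in the background range (4.72 and 5.11, adjusted p = 0.676). Of 36 measured assembly factors outside the prefixes 16 were higher and 20 lower, with a median of -0.03 and 1 gene in each direction at an unadjusted p under 0.05, against 3.74% of all genes higher and 5.69% lower. Cox11, which helps to load copper into complex IV, ran from 8.58 to 9.45 in NOD and from 7.98 to 8.89 in NOD.Drak2-/- (log2 difference -0.48, SE 0.16, adjusted p = 0.469). Tmem70, an assembly factor of the ATP synthase named after its values were seen, differed by 0.33 (adjusted p = 0.504). In both genes the groups overlapped.

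The tricarboxylic acid cycle, which supplies NADH and succinate, had 12 of 13 genes measured, 6 on each side of 0 and a median of 0.002. Its smallest p was that of Sucla2, in the background range (4.95 and 4.64, log2 difference -0.31, adjusted p = 0.497). Of 12 regulators of mitochondrial biogenesis 8 had a higher mean in NOD.Drak2-/-, with a median of 0.09. Nrf1, nuclear respiratory factor 1, ran from 8.60 to 9.11 in NOD (median 8.99) and from 8.75 to 9.40 in NOD.Drak2-/- (median 9.27), a log2 difference of 0.25 (SE 0.13, adjusted p = 0.566). The median of the NOD.Drak2-/- arrays lay above every NOD array, and the ranges overlapped. All 9 proliferation genes measured had a lower mean in NOD.Drak2-/- (median -0.27), among them Nusap1, a spindle protein (6.44 ± 0.58 and 5.75 ± 0.45, SD, n = 6 each, log2 difference -0.70, adjusted p = 0.483). The array means of this list ran from 6.84 to 8.04 in NOD and from 6.58 to 7.60 in NOD.Drak2-/-, and its part in the values of the 91 genes was not tested. Of the 11 heat shock and dissociation genes 5 were higher, with Fos at 0.44 (adjusted p = 0.527).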

How the data were processed

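Per the labels' protocols, 125 ng of RNA per sample was made into labelled cDNA with a whole-transcript kit and read on 1-colour arrays. The values used are the authors' deposited log2 table of 29129 rows. The submitters' processing notes name oligo, an R package, and RMA, which subtracts a modelled background, forces all arrays to the same distribution and combines a row's probes into 1 value, with versions not given in the sources used here. Because RMA gives the probe values of all arrays one distribution, a shift of all genes would not be seen. After probes were combined, array medians over the genes tested still ran from 5.22 to 5.34 in NOD and from 5.18 to 5.24 in NOD.Drak2-/-. Centring removes these differences between medians. Symbols came from the platform annotation (19572 rows with 1 symbol), and the brightest row per gene was kept, which left 19505 genes. Each of the 91 members had 1 row.

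Genotypes were compared over 6 against 6 arrays in R 4.3.3 using limma 3.58.1 (functions lmFit and eBayes, no covariate, two-sided), with p-values adjusted by Benjamini-Hochberg over all 19505 genes. Every adjusted p in the text is from that fit, except where another setting is named with it. The fit was tested on simulated data. Summaries over members are descriptions with no test of their own. Named genes were those past the threshold, the 2 with the smallest p per complex and direction, the core subunits of complex I, Sdha to Sdhd, the isoform pairs, and the smallest p of each related list. The members, lists and tests were chosen with earlier results of these data known. Alternatives were leaving out each array, a replicate block, centring, a background filter, variance and array weight models, a mean over rows, subunits alone, and heat shock, B cell and background covariates. Array values have no read depth, so precision is limited by the number of arrays. Of the 91 members, 29 overlap another gene in the RefSeq table, and strand-specific signal was not examined.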

Additional observations from a re-analysis of the deposited data

Results flagged for a closer look

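In 6 of 78 groups of 6 arrays examined, the highest or lowest array stood away from the others by more than the 95% limit of Dixon's test, which chance passes in about 1 in 20 groups. Among single genes, NOD 5 was the highest NOD array for Atp5j (10.26, next 9.98) and for Atp5o (9.23, next 9.05), and the lowest for Uqcrc2 (6.72, next 7.11). NOD 1 was the lowest NOD array for Cox8a (9.40, next 9.52). NOD.Drak2-/- 1 was the highest of its genotype for Cox6b1 (8.99, next 8.83). For the mean over complex I, NOD.Drak2-/- 2 was the lowest of its genotype (8.35, next 8.60), the array that also had the brightest background row (6.77).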

How the results depend on the processing

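No member passed an adjusted p of 0.05 under any setting, and the smallest adjusted p of a member lay between 0.155 (without NOD.Drak2-/- 4) and 0.646 (without NOD 2). Ndufb10 kept a positive difference under every setting, from 0.46 to 0.60. The 4 genes called among all genes became 0 with the replicate block, 1 with the B cell mean as covariate, 2 without NOD.Drak2-/- 1 and 2, 7 with the GC slope of the background rows as covariate, and 1 to 2 with each array left out. The 3 members at an unadjusted p under 0.05 became 1 after centring (10% of all genes), 1 without NOD.Drak2-/- 1 and 2 (8.12%), 10 with the GC slope (8 lower and 2 higher, 13.6% of all genes), and 1 to 4 with each array left out (6.91% to 13%), with 1 without NOD 1, 4 or 5 or NOD.Drak2-/- 1 or 2. The count of members whose groups do not overlap was 0 to 3 with each array left out (1, Ndufb10, without NOD 5, against 0.866% of all genes, and 3, Cox7a2, Ndufa3 and Ndufb10, without NOD.Drak2-/- 4, against 1.42%; the share of all genes ran from 0.672% to 1.42%). The median of complex IV became 0.0175 after centring and -0.00848 without NOD.Drak2-/- 1 and 2. The GC slope and the exclusion of NOD.Drak2-/- 1 and 2 were chosen after seeing the data.

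The sign of some single genes turned, and apart from centring the cause was not tested. Without NOD.Drak2-/- 1 and 2 the differences became 0.0137 for Sdhc, -0.108 for Uqcrc2, 0.0156 for Ndufv2, 0.0053 for Ndufs3 and 0.00106 for Cox8a. After centring, which moves every gene by the same amount, they became 0.0484 for Sdhc, 0.0185 for Cox6a2, 0.0165 for Cox8a and 0.00213 for Cox8b. With the GC slope they became -0.0207 for Sdhd and 0.0257 for Cox6a2. With each array left out, the ranges were -0.112 to 0.043 for Cox6a2, -0.027 to 0.109 for Cox7b2, -0.000736 to 0.163 for Sdha, -0.064 to 0.0235 for Sdhc, -0.0489 to 0.146 for Sdhd and -0.0397 to 0.122 for Uqcrc2.

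Arrays with the same number deviated from their genotype means with correlations of -0.18 to 0.09. The labels do not say whether the 5 shared numbers pair the samples, and low correlations over all genes cannot decide it. With the replicate block, 0 genes and 0 members were called, 1519 genes (7.79%) and 3 members (Atp5j, Ndufb10 and Sdhb) had an unadjusted p under 0.05, and the differences became -0.0524 for Sdhd, -0.00202 for Ndufs7 and 0.0441 for Cox6a2.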
